A study of Homo sapiens with 24 samples.

Results

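The 50 genes described here are WNT ligands, receptors and modulators, taken from a list of pathway genes by symbol and looked up in 6 tables of normalized counts. A row was found for 47 of them in at least 1 table and for 34 in all 6, out of 34496 genes with a row in at least 1 table and 17794 in all 6. WNT2, WNT16 and WIF1 were not analysed here. By role they are 13 ligands, 3 genes of ligand secretion and inactivation, 14 receptors and co-receptors, 8 secreted antagonists, 4 genes of the destruction complex and beta-catenin, 4 membrane ligases and feedback inhibitors, and 4 nuclear factors.

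Polyadenylated RNA was sequenced in 24 libraries of cultured human glioma cell lines, in 8 groups of 3 replicates. The lines are U87-R and LN229-R, labelled as resistant to temozolomide, and their parental lines U87 MG and LN229. Temozolomide is an alkylating drug used against glioma, and the medium of both resistant lines held 50 µM of it in every group, DMSO controls included. Each line was exposed for 96 h to 50 µM STM2457 or to the same volume of DMSO. STM2457 is an inhibitor of METTL3, the enzyme that writes N6-methyladenosine (m6A) on messenger RNA. Libraries of the U87 lines, grown in EMEM, were made with a TruSeq Stranded mRNA kit. Those of the LN229 lines, grown in DMEM with pyruvate and less serum, were made with the Watchmaker mRNA kit. Cell background therefore cannot be told apart from medium and kit. The labels say neither that replicates were separate cultures nor whether a resistant line is 1 clone, so p-values measure the spread between these libraries only.

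WNT proteins are lipid-modified by PORCN, carried to the surface by WLS and bound by Frizzled receptors together with LRP5 or LRP6. Binding stops a complex built on APC and AXIN proteins from marking beta-catenin (CTNNB1) for destruction, and beta-catenin then acts in the nucleus with LEF1 and the TCF proteins. Secreted DKK and SFRP proteins, the ligases RNF43 and ZNRF3, and AXIN2 and NKD proteins restrain the pathway. In glioma the pathway is studied for its part in stem-like growth and in the response to temozolomide.

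Normalized counts summed to between 21232924 and 25349361 in U87 libraries and to between 24101385 and 28716587 in LN229 libraries. Markers of glioma and mesenchymal cultures (VIM, NES, CD44, S100A6, CAV1 and LGALS1) together held 96584 to 166422 normalized counts in LN229 libraries and 156799 to 226926 in U87 libraries. Astrocyte markers summed to at most 237 in LN229 libraries and 1561 in U87 libraries, epithelial markers to 980 to 2187 and 189 to 709, and endothelial markers to 44 to 179 and 12 to 62. Immune markers summed to 9446 to 20216 in U87 libraries, nearly all of it the lysosomal gene CD68, while the pan-leukocyte gene PTPRC stayed at or under 5.05. In the drug tables of the LN229 lines CD68 itself moved with treatment, at 213 to 721 in STM2457 and 53.9 to 105 in DMSO libraries, with PTPRC at or under 5.36. Neuron markers, mostly SNAP25, moved the other way, at 659 to 780 in STM2457 and 1612 to 1771 in DMSO libraries of LN229-R, and at 651 to 728 in STM2457 and 1310 to 1484 in DMSO libraries of LN229. In U87 MG they held 474 to 576 in STM2457 and 631 to 700 in DMSO. Within the glioma list VIM averaged 42142 in STM2457 and 70544 in DMSO libraries of LN229-R, and CD44 39144 and 13662, without overlap. The part of these shifts in the results below was not tested. The second STM2457 replicate of LN229-R stood furthest from its group, with an SD of 0.468 for the log2 ratio to the mean of the other 2 replicates. The second STM2457 replicate of LN229 followed with 0.377 and the second DMSO replicate of LN229-R with 0.38 (0.371 in the resistance table, under the name LN229), against 0.156 to 0.368 elsewhere.

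The names of the LN229 DMSO libraries conflict between tables. Each of the 6 columns of the table that sets LN229-R against LN229 was closest to the like-numbered library of the other line in the drug tables, with an SD of the log2 ratio over genes of 0.0579 to 0.0619. Like-named columns differed by an SD of 0.346 to 0.406. In the U87 tables all 6 columns were closest to the column of the same name. DKK1 shows the conflict: the columns named LN229-R held 210.0, 217 and 393 in the resistance table, and the drug tables gave 196, 203 and 368 under LN229 DMSO. MGMT, a DNA repair gene tied to temozolomide response, was listed at 0 in all 3 columns named LN229-R of the resistance table, where the columns named LN229 held 208, 196 and 191. In the drug table of LN229-R it held 169, 190.5 and 165 in STM2457 columns and 205, 194 and 188 in DMSO columns. The direction of every difference between LN229-R and LN229 below depends on which names are right, and it is given as labelled. STM2457 effects were computed within each drug table, and the LN229 line to which each belongs rests on that table's names.

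Which WNT genes were expressed is described first, as normalized counts per kilobase of the principal GENCODE 29 transcript, in DMSO. Among ligands WNT5A, a ligand best known for signalling without beta-catenin, led in LN229-R with 365 ± 73.6, in LN229 with 326 ± 36.6 and in U87 MG with 1115 ± 164 (SD, n = 3 each). In U87-R the ligand WNT7B came first with 1074 ± 220, ahead of WNT5A with 900.4 ± 27.6, and the spreads of the 2 genes met. Neither LN229 table lists WNT7B. The most abundant Frizzled receptor was FZD7 in both LN229 lines, with 1568 ± 107 in LN229-R and 1364 ± 57.2 in LN229. In U87 MG the receptor RYK led the receptors with 410 ± 31.7, followed by FZD6, FZD1 and FZD2, whose levels of 145 to 163 did not differ beyond their spread. DKK3, a divergent DKK family member, was the most abundant antagonist in all 4 lines, with 8616 ± 472 in LN229-R, 4765 ± 113 in LN229, 217 ± 26.0 in U87-R and 189 ± 49.1 in U87 MG. CTNNB1 stood at 1811 ± 42.1 to 2336 ± 326 across the 4 lines. The authors scaled genes individually within each table, so these levels carry that scaling and were not tested between genes or tables.

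Several members were high in libraries of 1 background and low or not listed in the other, and background stands together with medium and kit. LRP5, a co-receptor, held 1662 to 3603 normalized counts in LN229 libraries of the drug and resistance tables and at most 78.0 in U87 libraries. The antagonist SFRP1 held at least 2022 in LN229 libraries and at most 3.13 in U87 libraries. RNF43 reached 1509 in LN229 libraries and 1.83 in U87 libraries, and TCF7L1, a mostly repressive TCF, reached 1039 and 2.78. ROR1, a receptor for WNT5A, reached 672 in LN229 libraries and 15.3 in U87 libraries. FZD9 and NKD2 were listed only in the LN229 tables used, and WNT7B and SFRP2 only in the U87 tables. In bulk samples, fewer cells with a transcript and less of it per cell cannot be told apart.

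Changes were tested within each table with limma on log2(normalized count + 1), keeping genes that averaged 10 or more, and a gene was called at an adjusted p under 0.05 over all genes tested. STM2457 changed 10 of 33 tested members in U87 MG (7 higher, 3 lower), where 13.6% of all 16407 tested genes were called. In U87-R it changed 10 of 31 (7 higher, 3 lower), where 14.7% of 16185 genes were called. In LN229 it changed 23 of 39 (18 higher, 5 lower), where 49.7% of 17107 genes were called, and in LN229-R 18 of 35 (14 higher, 4 lower), where 38.6% of 17063 genes were called. The median log2 change of the tested members was 0.01 in U87 MG, 0.19 in U87-R, 0.37 in LN229 and 0.36 in LN229-R, whereas the median over all genes lay between -0.02 and 0.00 in the 4 lines. All genes called in U87 MG split 1289 higher and 939 lower, but 1662 higher and 760 lower with libraries rescaled to equal totals, and 1098 higher and 1162 lower with equal upper quartiles. Equal upper quartiles gave more genes lower than higher in both LN229 lines as well, with 3964 higher and 4754 lower in LN229 and 3329 higher and 3554 lower in LN229-R; equal totals gave 4265 and 4324 in LN229. Members called under equal upper quartiles were 5 higher and 4 lower in U87 MG, 18 and 5 in LN229, and 14 and 5 in LN229-R. Without 1 library the member count fell to 4 to 6 in U87 MG (4 without STM2457 replicate 2, 6 without STM2457 replicate 1 or DMSO replicate 2 or 3) and to 4 or 5 in U87-R (4 without STM2457 replicate 2 or DMSO replicate 2, 5 without DMSO replicate 1). All genes called fell too. Without STM2457 replicate 2 they were 519 higher and 371 lower in U87 MG, and 514 higher and 370 lower in U87-R.

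**Figure D1:**
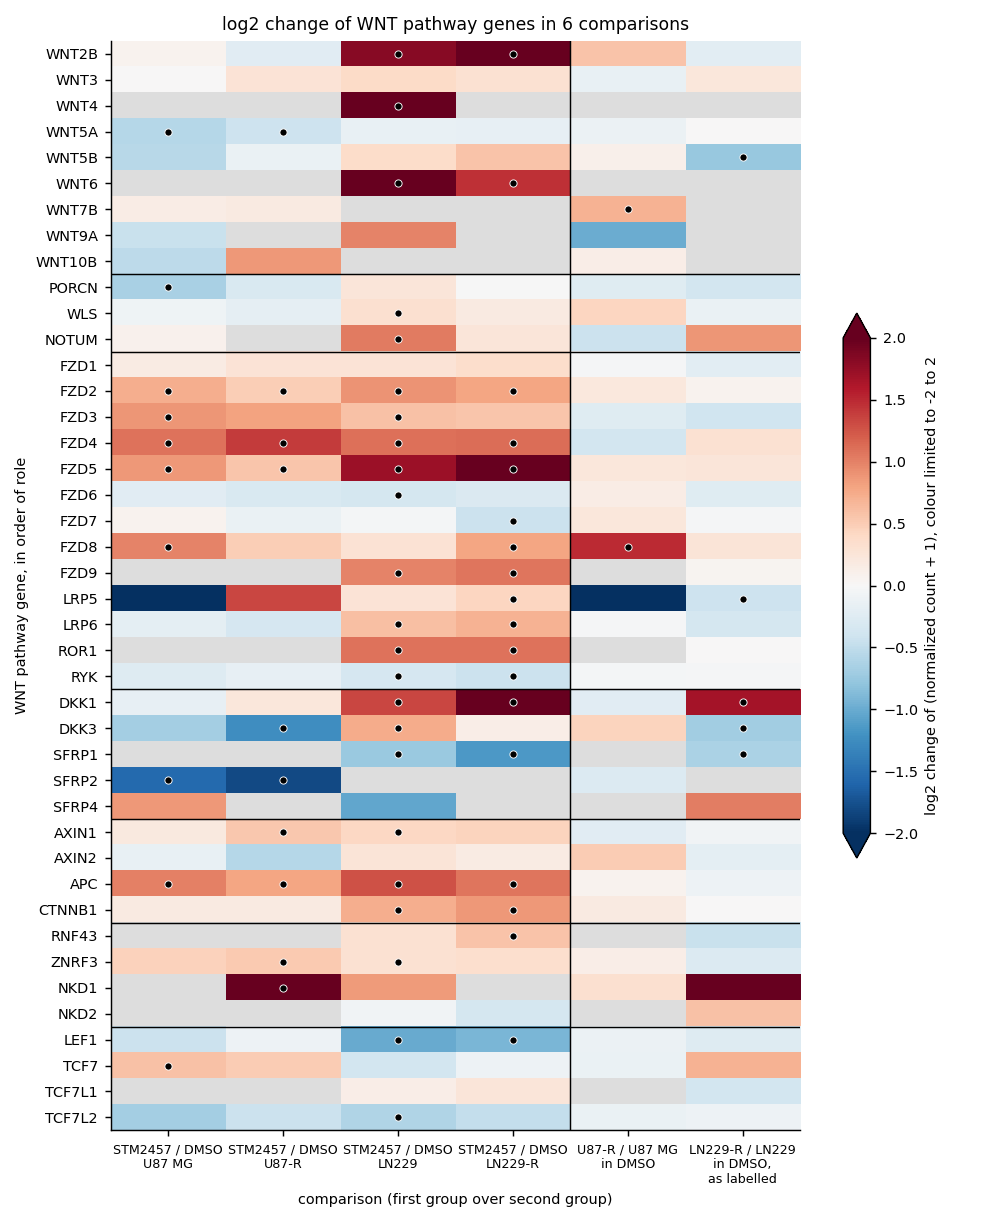
Each row is 1 of the 42 WNT pathway genes tested in at least 1 comparison, grouped by role, and each column is a comparison; colour is the log2 change of normalized count + 1 (grey where the gene was not tested) and black dots mark an adjusted p under 0.05. FZD2, FZD4, FZD5 and APC carry a dot in all 4 STM2457 columns, with no dot in either resistance column.

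Of the 27 members tested in all 4 lines, 4 were higher in STM2457 in every line and 0 were lower in every line. The 4, or 14.8%, are the Frizzled receptors FZD2, FZD4 and FZD5 and the scaffold APC; of 13363 genes tested in all 4 lines, 562 (4.21%) were higher in every line and 180 lower. FZD4 kept its 4 calls without any 1 library, whereas FZD2 and APC each lost a call in both U87 lines and FZD5 in U87-R, as given with those genes. Over the 4 lines, 22 members rose in at least 1 line and fell in none, 9 fell in at least 1 and rose in none (WNT5A, PORCN, FZD6, FZD7, RYK, SFRP1, SFRP2, LEF1 and TCF7L2), DKK3 did both, and 10 tested members passed in no line. The same counts over all genes were not made, and 49.7% of all genes were called in LN229 alone. This split is therefore no result about the members. FZD2 has 1 exon and FZD4 and FZD5 have 2, and all 4 genes hold the pentamer GGACT, a frequent form of the m6A consensus, in their coding sequence. How many of all genes hold it there was not counted, so its presence is no result about these 4 genes. The bases around such pentamers are given because these are the members that rose in all 4 lines, for 2 of the 4 coding sites of APC and for all coding sites of the others; capitals mark GGACT. Coordinates are of GRCh38 and sequences of GENCODE 29, 5′ to 3′ on the coding strand; whether any of these positions is methylated was not measured.
FZD2, chr17:44558191-44558211, plus strand, in its single exon: cgccgccgGGACTgcagccgg
FZD4, chr11:86951858-86951878, minus strand, coding exon: tccaagaaGGACTtaagaaca
FZD4, chr11:86951750-86951770, minus strand, coding exon: tggcagcaGGACTcaaatggg
FZD5, chr2:207767066-207767086, minus strand, coding exon: gccgcaggGGACTaccccgag
APC, chr5:112842784-112842804, plus strand, coding exon: cctccaaaGGACTaaatcaga
APC, chr5:112843910-112843930, plus strand, coding exon: acctagtgGGACTgttgctgc
Over the whole transcript GGACT occurred 1.35 times per kilobase in FZD4 and 1.34 times in FZD5, but 0.473 times in FZD2 and 0.561 times in APC, beside a median of 0.934 over 19666 genes. Members that fell and rose in no line held it too, 4 times in WNT5A, 3 in TCF7L2, 2 in RYK and FZD6, and 1 in FZD7 and SFRP1. PORCN, SFRP2 and LEF1 held 0.

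Ligands were called about as often as all genes. Of those tested, 3 of 7 rose in LN229 (42.9%, against 49.7% of all genes called) and 2 of 5 in LN229-R (40% against 38.6%). In U87 MG 1 of 7 fell (14.3% against 13.6%) and in U87-R 1 of 6 (16.7% against 14.7%). The risers WNT4 and WNT6 in LN229 and WNT6 in LN229-R passed the filter only through their STM2457 libraries. WNT2B, a ligand of the beta-catenin branch, held 149, 188 and 140.1 normalized counts in STM2457 and 30.4, 61.4 and 28.2 in DMSO libraries of LN229-R. In LN229 it held 114, 122 and 92.7 in STM2457 and 15.4, 50.1 and 35.1 in DMSO. Every STM2457 library stood above every DMSO library, by a log2 change of 2.04 ± 0.33 (SE) in LN229-R and 1.82 ± 0.39 in LN229 (adjusted p = 0.00242 and 0.00579, limma). In the U87 lines WNT2B groups overlapped, at 64.9 to 95.4 in STM2457 and 82.6 to 110.5 in DMSO libraries of U87-R.

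WNT6 had 46.0, 52.6 and 41.4 in STM2457 and 14.9, 6.62 and 8.24 in DMSO libraries of LN229, and 13.1, 23.7 and 23.7 in STM2457 and 5.52, 10.4 and 4.49 in DMSO libraries of LN229-R. The groups did not overlap in either line, and the log2 changes were 2.19 ± 0.35 and 1.47 ± 0.46 (adjusted p = 0.00142 and 0.0355, limma). WNT4 was called in LN229 alone, where its STM2457 libraries spread widely at 93.7, 14.7 and 66.7 against 0.838, 3.28 and 5.11 in DMSO (3.68 ± 0.73). In LN229-R WNT4 lay under the filter, at 4.52 to 13.1 in STM2457 and 1.00 to 4.05 in DMSO. Values this low shrink on the log2(value + 1) scale. DMSO libraries averaged under 10 for WNT4 in LN229 and for WNT6 in both LN229 lines. These genes therefore passed the filter there only through their STM2457 libraries.

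WNT5A fell in the U87 lines. It held 4022, 4619 and 5330.4 in STM2457 and 5749, 7227 and 7687 in DMSO libraries of U87 MG. In U87-R it held 4475, 4127 and 3901 in STM2457 and 5488, 5756 and 5439 in DMSO. No STM2457 library reached a DMSO library of its line, and the log2 changes were -0.56 ± 0.14 in U87 MG and -0.42 ± 0.09 in U87-R (adjusted p = 0.0319 and 0.0183, limma). In both LN229 lines the WNT5A groups overlapped, with differences of -0.15 and -0.17 that did not pass, and the test of the difference between backgrounds did not call WNT5A (adjusted p = 0.246 for LN229 minus U87 MG and 0.593 for LN229-R minus U87-R). WNT3, WNT9A, WNT10B and WNT5B did not pass in any line where they were tested, and WNT7B not in U87 MG or U87-R (0.15 and 0.18). With the replicate number as a block WNT5B passed in LN229-R (0.57, adjusted p = 0.0464) and in U87 MG, where the numbers do not pair (-0.56, adjusted p = 0.0406). WNT10A and WNT11 stayed at or under 6.70 and 7.49 in every library and were not tested.

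Calls of these ligands that rested on single libraries were WNT6 in LN229-R (lost without STM2457 replicate 2 or 3 or DMSO replicate 1 or 3, adjusted p up to 0.116) and WNT5A in both U87 lines. WNT5A was lost in U87 MG without STM2457 replicate 1 or 2 or DMSO replicate 2 or 3 (up to 0.109), in U87-R without STM2457 replicate 2 or DMSO replicate 1 or 2 (up to 0.0901), and in both without limma's variance trend (0.101 and 0.0685).

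Of the genes of secretion, PORCN, the acyltransferase that WNT ligands need, fell in U87 MG, with 538 to 746 in STM2457 and 879.9 to 1130.0 in DMSO libraries, a gap without overlap (-0.64 ± 0.15, adjusted p = 0.0265, limma). In the other 3 lines its differences were -0.30 in U87-R, 0.25 in LN229 and -0.01 in LN229-R, and none passed. WLS, the carrier of WNT ligands, rose in LN229, with 2234 to 2587 in STM2457 and 1836 to 2099 in DMSO libraries (0.32 ± 0.09, adjusted p = 0.0201, limma). NOTUM, a secreted enzyme that removes the WNT lipid, held 237, 114 and 142 in STM2457 and 74.8, 72.2 and 80.8 in DMSO libraries of LN229. All 3 treated libraries were higher (1.04 ± 0.27, adjusted p = 0.012, limma), whereas in LN229-R they overlapped at 32.0 to 74.5 in STM2457 and 34.2 to 61.1 in DMSO. PORCN was lost without STM2457 replicate 1 or 2 or DMSO replicate 2 or 3 of U87 MG (adjusted p up to 0.0898) and without the variance trend (0.078), and WLS without STM2457 replicate 1 or 3 or DMSO replicate 2 or 3 of LN229 (up to 0.0767) and without the trend (0.051).

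STM2457 raised 5 of 11 tested receptors and co-receptors in U87 MG, 3 of 11 in U87-R, 7 of 13 in LN229 and 8 of 13 in LN229-R, and lowered 2 in each LN229 line and 0 in each U87 line. The share called was 45.5% in U87 MG, 27.3% in U87-R, 69.2% in LN229 and 76.9% in LN229-R, beside 13.6%, 14.7%, 49.7% and 38.6% of all genes. FZD5, a receptor of beta-catenin signalling, held 934, 719 and 854 in STM2457 and 197, 200.3 and 216 in DMSO libraries of LN229-R. LN229 gave 703, 655 and 755 in STM2457 and 216, 216 and 213 in DMSO. These groups stood far apart, by 2.02 ± 0.15 in LN229-R and 1.70 ± 0.10 in LN229 (adjusted p = 7.58e-05 and 1.48e-05, limma).

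FZD5 rose less in the U87 lines. It held 462, 483 and 441 in STM2457 and 268, 238 and 254 in DMSO libraries of U87 MG. U87-R gave 372, 419 and 366 in STM2457 and 245, 288 and 258 in DMSO. Again no library overlapped, with changes of 0.87 ± 0.13 in U87 MG and 0.55 ± 0.14 in U87-R (adjusted p = 0.00438 and 0.0342, limma).

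FZD4, the receptor of WNT and of the ligand norrin, held 109.9, 130.1 and 124 in STM2457 and 36.1, 51.6 and 49.2 in DMSO libraries of U87-R, and 153, 129.8 and 129 in STM2457 and 62.4, 62.9 and 67.4 in DMSO libraries of U87 MG. In LN229-R it held 332, 337 and 382 in STM2457 and 164, 179 and 143 in DMSO, and in LN229 311, 397 and 467 in STM2457 and 168, 192 and 179 in DMSO. FZD4 was higher in every treated library than in any control of its line, with changes of 1.41 in U87-R, 1.08 in U87 MG, 1.11 in LN229-R and 1.10 in LN229 (adjusted p = 0.00627, 0.00928, 0.00158 and 0.000991, limma). FZD2 held 565, 518 and 429.7 in STM2457 and 362, 282 and 271 in DMSO libraries of U87 MG, and 407, 466 and 450.0 in STM2457 and 319, 308 and 313 in DMSO libraries of U87-R. In LN229 it held 668, 615 and 579 in STM2457 and 303, 355 and 345 in DMSO, and in LN229-R 612, 638 and 599 in STM2457 and 305, 379 and 392 in DMSO. Its groups did not overlap in any line, and the changes were 0.73, 0.49, 0.89 and 0.79 in the same order of lines (adjusted p = 0.0224, 0.0365, 0.000418 and 0.00373, limma).

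**Figure D2:**
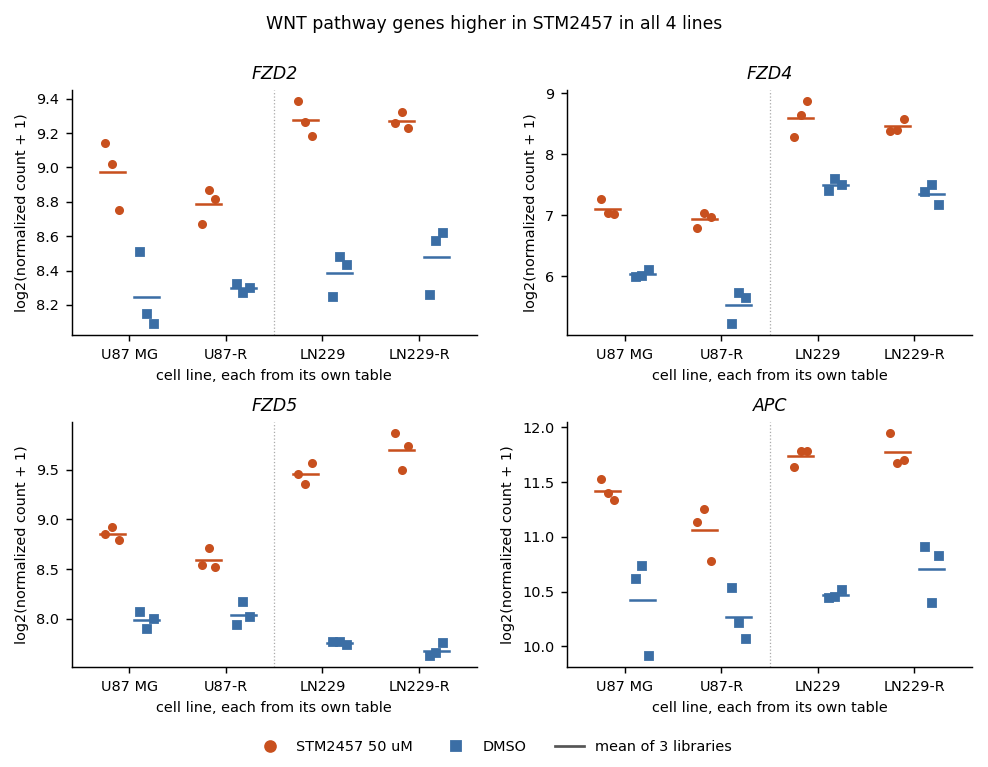
Points are log2(normalized count + 1) of FZD2, FZD4, FZD5 and APC in single libraries (circles STM2457, squares DMSO), and lines are means of 3; each line comes from its own table. In all 16 gene and line pairs every STM2457 library lies above every DMSO library, by up to 2.02 for FZD5 in LN229-R. These genes are drawn because they were called higher in every line, so the separation follows largely from that choice. How many of all tested genes had groups without overlap was not counted, so the separation is no result about these genes.

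FZD8 held 659.6, 906 and 686 in STM2457 and 398, 427 and 309 in DMSO libraries of U87 MG, and 1972, 1426 and 2184 in STM2457 and 905, 968 and 1366 in DMSO libraries of LN229-R. It rose by 0.99 ± 0.17 in U87 MG and 0.79 ± 0.21 in LN229-R without overlap (adjusted p = 0.0079 and 0.0187, limma). In U87-R its groups overlapped by 1 library (1063 to 1567 in STM2457 and 713 to 1100.2 in DMSO), and the difference of 0.49 did not pass (adjusted p = 0.125, and 0.00459 with the replicate block). In LN229 the difference of 0.29 did not pass. FZD3, a receptor of planar cell polarity, rose in U87 MG, with 161, 192 and 163 in STM2457 and 119, 66.6 and 101 in DMSO (0.88 ± 0.24, adjusted p = 0.0456, limma). It also rose in LN229, with 658, 837 and 839 in STM2457 and 566, 427 and 573 in DMSO (0.58 ± 0.15, adjusted p = 0.0128, limma). In LN229-R it held 1185 to 1239 in STM2457 and 566 to 1039 in DMSO, a difference of 0.55 that did not pass (adjusted p = 0.0767, and 0.0349 with the replicate block). In U87-R its difference of 0.80 did not pass either. FZD9, listed in the LN229 tables alone, held 293, 429 and 475 in STM2457 and 142, 217 and 207 in DMSO libraries of LN229-R, with a change of 1.07, and 268, 427 and 335 in STM2457 and 152, 181 and 175 in DMSO libraries of LN229, with 0.99. Both gaps were free of overlap.

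RYK, FZD6 and FZD7 were the receptors that fell. RYK, a tyrosine kinase-related WNT receptor, held 1620.0, 1535 and 1569.6 in STM2457 and 2344, 1984 and 2085 in DMSO libraries of LN229-R. In LN229 it held 1474, 1415 and 1550.5 in STM2457 and 1872, 1837 and 1898 in DMSO. Its groups did not overlap, and the changes were -0.44 and -0.34 (adjusted p = 0.0126 and 0.00636, limma). FZD7, a receptor tied to stem cells, had 4002 to 4827 in STM2457 and 5640.4 to 6463 in DMSO libraries of LN229-R (-0.43, adjusted p = 0.0207, limma), but its groups overlapped in LN229 (-0.04). FZD6, which mostly opposes beta-catenin signalling, had 2117 to 2476 in STM2457 and 2854 to 3116 in DMSO libraries of LN229 (-0.35, adjusted p = 0.0104, limma). In the U87 lines RYK differed by -0.25 in U87 MG and -0.16 in U87-R, and FZD6 by -0.23 and -0.30, and none passed. The difference between backgrounds was not called for RYK (adjusted p = 0.654 for LN229 minus U87 MG and 0.21 for LN229-R minus U87-R) or FZD6 (0.704 and 0.997). FZD1 differed by 0.16 to 0.36 in the 4 lines without a call, and with the replicate block it passed in U87-R and LN229-R, where the numbers pair (adjusted p = 0.0443 and 0.031), and in LN229 (0.0448).

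LRP6 and ROR1 rose in both LN229 lines. LRP6, the main co-receptor for beta-catenin signalling, held 3898, 4734 and 4501 in STM2457 and 3089, 2414 and 2593 in DMSO libraries of LN229-R, and 2485, 3301 and 3009 in STM2457 and 2055, 1842 and 1883 in DMSO libraries of LN229. The changes of 0.70 and 0.60 came without overlap (adjusted p = 0.00447 and 0.00295, limma). In the U87 lines LRP6 was not called, at -0.20 in U87 MG and -0.34 in U87-R. LRP5 held 3603, 3434 and 3346 in STM2457 and 2464, 2921 and 2349 in DMSO libraries of LN229-R, again with every treated library higher (0.43, adjusted p = 0.0191, limma), and its difference of 0.27 in LN229 did not pass. In the U87 lines LRP5 varied widely at low values, from 3.37 to 36.5 in STM2457 and 2.28 to 7.53 in DMSO libraries of U87-R, and was not called. ROR1 held 672, 556 and 591 in STM2457 and 341, 216 and 314 in DMSO libraries of LN229-R, and 589, 508 and 597 in STM2457 and 261, 247 and 293 in DMSO libraries of LN229. It rose by 1.08 in each line (adjusted p = 0.00379 and 0.000236, limma), with a clear gap between groups. ROR2 stayed at or under 2.07 and was not tested.

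Receptor calls that single libraries ended were FZD2 and FZD5 in U87-R, FZD2 and FZD3 in U87 MG, and FZD7, FZD8 and LRP5 in LN229-R. FZD2 lost its call in U87-R without any 1 of the 6 libraries (adjusted p up to 0.147), and FZD5 there without any but STM2457 replicate 3 (up to 0.142), both also without a filter on low values (0.0589 and 0.0516). In U87 MG FZD2 lost it without STM2457 replicate 1 or 2 or DMSO replicate 2 or 3 (up to 0.0926), and FZD3 without those or STM2457 replicate 3 (up to 0.158). FZD3 in U87 MG also missed the threshold without the trend (0.0759), with no filter (0.0544) and with equal upper quartiles (0.0548), and FZD2 without the trend (0.0579). In LN229-R FZD7 was lost without STM2457 replicate 1 or 3 or DMSO replicate 1 (up to 0.0747), FZD8 without STM2457 replicate 1 or 3 or DMSO replicate 1 or 2 (up to 0.0676), and LRP5 without STM2457 replicate 1 or 3 or DMSO replicate 1 or 3 (up to 0.0874).

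DKK1, which blocks LRP5 and LRP6, held 1004, 176 and 576 in STM2457 and 96.4, 60.6 and 92.8 in DMSO libraries of LN229-R, and 799, 357 and 838 in STM2457 and 196, 203 and 368 in DMSO libraries of LN229. Replicate 2 was the lowest treated library in both lines; in LN229-R the groups were apart (2.50 ± 0.56, adjusted p = 0.0101, limma) and in LN229 they overlapped by 1 library (1.34 ± 0.36, adjusted p = 0.0142, limma). In the U87 lines DKK1 held 30.2 to 68.0 in all 12 drug-table libraries, and differences of -0.16 in U87 MG and 0.22 in U87-R did not pass. The call in LN229 was lost without DMSO replicate 1 or 2 (adjusted p up to 0.0568).

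The 250 bases before the DKK1 start, from RefSeq (GRCh38.p14), are shown because DKK1 was the only 1 of 35 members with a promoter sequence to hold the TCF/LEF motif searched for (CTTTGAA or CTTTGAT, either strand). That motif stood in 1646 of 27305 promoters, or 6.03%, and the members' promoters had a median GC content of 70.8%, against 58.0% over all. Capitals mark the match, which is a description of letters and not evidence of a bound site.
DKK1, chr10:52314031-52314280, plus strand: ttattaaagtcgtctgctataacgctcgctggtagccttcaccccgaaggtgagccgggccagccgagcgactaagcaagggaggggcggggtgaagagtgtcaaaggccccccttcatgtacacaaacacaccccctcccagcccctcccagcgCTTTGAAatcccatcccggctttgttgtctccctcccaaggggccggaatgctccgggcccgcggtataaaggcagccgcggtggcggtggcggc

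DKK3 was the only member called in both directions. It held 21838, 19169 and 22216 in STM2457 and 12950.1, 12567 and 12362 in DMSO libraries of LN229, and it rose there by 0.74 ± 0.09 without overlap (adjusted p = 0.000439, limma). In U87-R it held 219, 264 and 246 in STM2457 and 552, 520.4 and 652 in DMSO, and it fell by 1.24 on the log2 scale, again without overlap (adjusted p = 0.0017, limma). In U87 MG 377, 301 and 253 in STM2457 stood below 651, 429 and 422 in DMSO, but the difference of -0.68 did not pass (adjusted p = 0.0665, limma). In LN229-R, where DMSO libraries were already at 21679.8 to 24160.3, STM2457 libraries held 22913 to 27698 and the groups overlapped.

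SFRP1 fell in both LN229 lines and SFRP2 in both U87 lines. SFRP proteins bind WNT ligands outside the cell. SFRP1 held 3772, 2689 and 4524 in STM2457 and 7283, 9934 and 6878 in DMSO libraries of LN229-R, and 3156, 2022 and 3176 in STM2457 and 4579, 4790.0 and 4259 in DMSO libraries of LN229. The changes were -1.15 and -0.73 without overlap (adjusted p = 0.0046 and 0.00713, limma). SFRP2 held 31.9, 20.2 and 16.5 in STM2457 and 102, 73.8 and 66.4 in DMSO libraries of U87-R, and 35.6, 35.1 and 37.2 in STM2457 and 87.6, 118 and 121 in DMSO libraries of U87 MG. It fell by 1.81 and 1.56 on the log2 scale (adjusted p = 0.00919 and 0.00498, limma), and no treated library reached a control. SFRP4 was tested in U87 MG and LN229, with differences of 0.87 and -1.04 that did not pass, and lay under the filter in LN229-R, at 1.87 to 3.91 in STM2457 and 13.4 to 17.5 in DMSO. FRZB and DKK2 stayed at or under 11.7 and 7.91 in every library and were not tested.

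**Figure D3:**
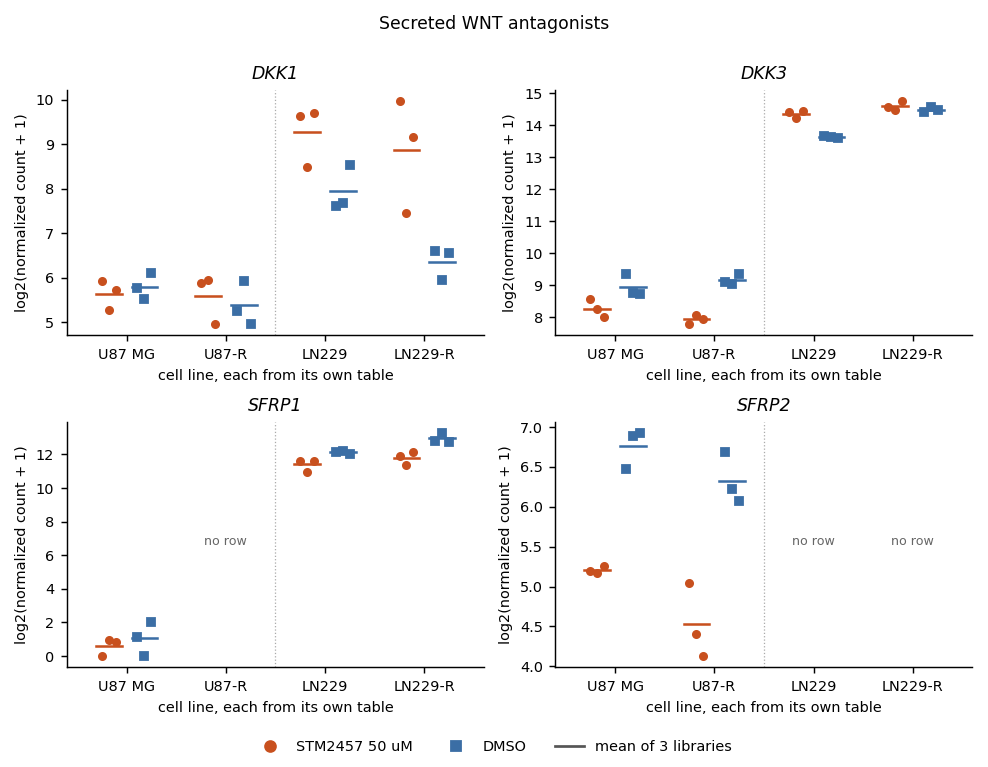
Points are log2(normalized count + 1) of DKK1, DKK3, SFRP1 and SFRP2 in single libraries (circles STM2457, squares DMSO), and lines are means of 3; each line comes from its own table, and a table that does not list the gene is marked. DKK1 is higher in STM2457 in both LN229 lines, DKK3 is lower in U87-R and higher in LN229, and both SFRP genes are lower wherever they were tested.

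In the destruction complex APC, its scaffold, rose in all 4 lines. It held 2953, 2705 and 2588 in STM2457 and 1572, 1697 and 962 in DMSO libraries of U87 MG, and 2254, 2444 and 1757 in STM2457 and 1477, 1189.6 and 1070.0 in DMSO libraries of U87-R. In LN229 it held 3193, 3527 and 3533 in STM2457 and 1394, 1399 and 1464 in DMSO, and in LN229-R 3951, 3259 and 3332 in STM2457 and 1917, 1345 and 1815 in DMSO. No groups overlapped, and the changes were 1.00 in U87 MG, 0.79 in U87-R, 1.27 in LN229 and 1.06 in LN229-R (adjusted p = 0.0122, 0.0136, 1.47e-05 and 0.00152, limma). AXIN1, the other scaffold, held 833, 994 and 1027 in STM2457 and 637, 669 and 650.2 in DMSO libraries of U87-R (0.54, adjusted p = 0.0201, limma), and 369.9, 381 and 363 in STM2457 and 296, 272 and 272 in DMSO libraries of LN229 (0.41, adjusted p = 0.0138, limma). In both lines its treated libraries were all higher. In LN229-R its difference of 0.44 stood at the threshold (adjusted p = 0.0506, 0.0269 with the replicate block and 0.046 on genes averaging 50 or more). AXIN2, a feedback inhibitor widely used as a readout of beta-catenin signalling, passed in no line, with differences of -0.14 in U87 MG, -0.57 in U87-R, 0.27 in LN229 and 0.16 in LN229-R and overlapping groups in each.

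CTNNB1, the effector of the pathway, held 28166, 14409.5 and 20059 in STM2457 and 12335, 9342 and 11508 in DMSO libraries of LN229-R, and 18403, 13772 and 17374 in STM2457 and 10166, 9121 and 10542 in DMSO libraries of LN229. Treated libraries were all higher, by 0.87 ± 0.24 and 0.72 ± 0.12 (adjusted p = 0.0232 and 0.00191, limma). In U87 MG it held 9463 to 9882 in STM2457 and 8455 to 8806 in DMSO, and in U87-R 9919 to 10242 in STM2457 and 8555 to 9062 in DMSO. These small shifts of 0.18 and 0.19 came without overlap but did not pass (adjusted p = 0.182 and 0.166, limma; with the replicate block 0.0256 in U87-R). These are transcript levels, and beta-catenin protein was not measured.

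Among membrane ligases, ZNRF3, which removes Frizzled receptors from the surface, held 635, 714 and 806 in STM2457 and 484, 502 and 504 in DMSO libraries of U87-R (0.53, adjusted p = 0.0279, limma), and 1144, 1108 and 1243 in STM2457 and 996, 879 and 952 in DMSO libraries of LN229 (0.31, adjusted p = 0.0213, limma). Groups were apart in both. In LN229-R a difference of 0.34 did not pass (adjusted p = 0.0712, and 0.0158 with the replicate block). Its homologue RNF43 rose in LN229-R, with 1239.9 to 1509 in STM2457 and 788 to 1055 in DMSO libraries (0.58, adjusted p = 0.014, limma), and was not called in LN229 (0.30). NKD1, a Dishevelled-binding inhibitor, held 48.4, 64.4 and 50.2 in STM2457 and 3.48, 3.05 and 14.5 in DMSO libraries of U87-R. The gap was 3.07 ± 0.55 (adjusted p = 0.00831, limma). Its DMSO libraries there averaged under 10, so NKD1 passed the filter in U87-R only through its STM2457 libraries. In U87 MG and LN229-R NKD1 lay under the filter with overlapping groups. In LN229 it overlapped too, at 18.8 to 78.9 in STM2457 and 11.4 to 87.4 in DMSO. NKD2 did not pass in either LN229 line.

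APC was lost in U87 MG without STM2457 replicate 2 (adjusted p = 0.0508) or the trend (0.0574), and in U87-R without STM2457 replicate 2 or DMSO replicate 2 (up to 0.0672) or the trend (0.0559). AXIN1 was lost in U87-R without STM2457 replicate 2 or DMSO replicate 1 or 2 (up to 0.0946) or the trend (0.0522), and in LN229 without DMSO replicate 3 (0.056). CTNNB1 was lost in LN229-R without STM2457 replicate 1 or 3 or DMSO replicate 2 or 3 (up to 0.0661), and RNF43 there without STM2457 replicate 3 (0.0582). ZNRF3 was lost in U87-R without STM2457 replicate 2 or 3 or DMSO replicate 1 or 2 (up to 0.101) or the trend (0.0576), and in LN229 without STM2457 replicate 3 or DMSO replicate 2 or 3 (up to 0.0775).

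Of the nuclear factors LEF1 fell in both LN229 lines and TCF7L2 in LN229. LEF1, an activating DNA-binding partner of beta-catenin, held 1075, 1036 and 1067 in STM2457 and 2168, 2155 and 2077 in DMSO libraries of LN229, and 1657, 1377 and 1702 in STM2457 and 2966, 3167 and 2769.7 in DMSO libraries of LN229-R. The treated libraries sat at a narrow level far below the controls, with changes of -1.01 ± 0.07 and -0.91 ± 0.12 (adjusted p = 2.94e-05 and 0.000904, limma). In U87 MG LEF1 held 295 to 343 in STM2457 and 415 to 470.5 in DMSO, a difference of -0.42 that did not pass (adjusted p = 0.0665, limma). TCF7L2, which can activate or repress WNT targets, fell in LN229, with 785, 965 and 959 in STM2457 and 1389, 1364 and 1357 in DMSO (-0.61 ± 0.10, adjusted p = 0.00157, limma). In LN229-R its second treated library stood high, at 908, 1509.6 and 1136 in STM2457 and 1624, 1611 and 1589 in DMSO. That difference of -0.47 did not pass (adjusted p = 0.065, limma), but did with the replicate block (0.0328) and with equal upper quartiles (-0.54, adjusted p = 0.0486). In the U87 lines TCF7L2 differed by -0.68 in U87 MG, without overlap, and by -0.43 in U87-R, and neither passed. With the replicate block it passed in U87 MG (adjusted p = 0.0438, limma), where the numbers do not pair. The difference between backgrounds was not called for TCF7L2 (adjusted p = 0.863 for LN229 minus U87 MG and 0.943 for LN229-R minus U87-R, limma).

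TCF7 rose in U87 MG, with 1228, 1439 and 1384 in STM2457 and 1114, 911 and 707 in DMSO (0.59 ± 0.16, adjusted p = 0.0458, limma). In U87-R it held 884 to 1192 in STM2457 and 539.9 to 884 in DMSO, and 0.51 did not pass (adjusted p = 0.115, and 0.00725 with the replicate block). TCF7 was lost in U87 MG without any library but DMSO replicate 1 (adjusted p up to 0.155), without the trend (0.115) and with equal upper quartiles (0.0653). TCF7L1 was not called in LN229 or LN229-R, at 0.14 and 0.24.

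**Figure D4:**
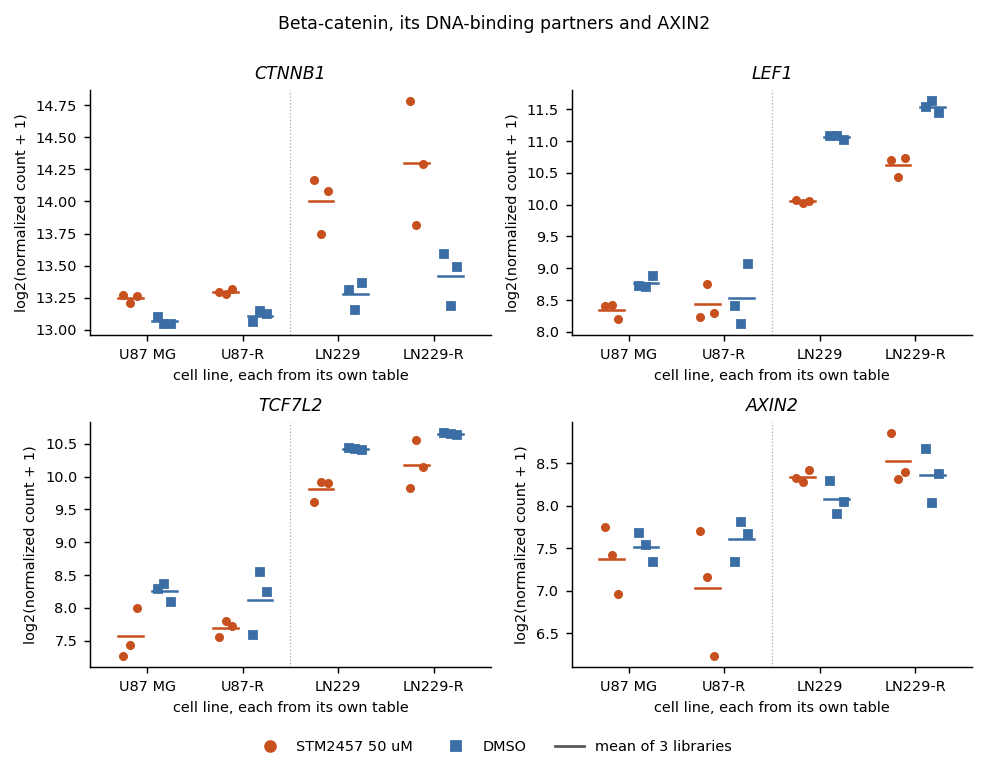
Points are log2(normalized count + 1) of CTNNB1, LEF1, TCF7L2 and AXIN2 in single libraries (circles STM2457, squares DMSO), and lines are means of 3; each line comes from its own table. In LN229 and LN229-R CTNNB1 is higher and LEF1 lower in STM2457, whereas AXIN2 overlaps in all 4 lines.

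Whether the lines responded differently was tested as the difference between their STM2457 effects in a joint limma fit of 12 libraries. Between U87-R and U87 MG 0 of 30 members differed, where 0% of 15680 genes were called; at an unadjusted p under 0.05 the counts were 1 member and 586 genes. Between LN229-R and LN229 0 of 35 members differed, where 0.00606% of 16511 genes were called, a single gene (RNA5-8SN2, named after its value was seen); 1 member and 651 genes had an unadjusted p under 0.05. A missed threshold does not show that resistant and parental lines responded alike.

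Between backgrounds, 9 of 30 members differed in LN229 minus U87 MG, where 18.8% of 13887 genes were called, and 4 of 27 in LN229-R minus U87-R, where 14.4% of 13759 genes were called. DKK3, FZD5, LRP6 and WNT2B differed in both. The STM2457 effect on FZD5 was 1.70 in LN229 and 0.87 in U87 MG, a difference of 0.84 ± 0.15 (adjusted p = 0.0029), and 2.02 in LN229-R and 0.55 in U87-R, a difference of 1.47 ± 0.20 (adjusted p = 0.000428). For LRP6 the effects were 0.60 in LN229 and -0.20 in U87 MG, and 0.70 in LN229-R and -0.34 in U87-R, with differences of 0.80 and 1.04. DKK3 gave differences of 1.41 and 1.37, and WNT2B of 1.75 and 2.26. In LN229 minus U87 MG alone the test also called DKK1 (1.49), PORCN (0.89), CTNNB1 (0.54), LEF1 (-0.58) and TCF7 (-0.96). In LN229-R minus U87-R these genes had differences of the same sign that missed the threshold of the same limma test. They were 2.28 for DKK1 (adjusted p = 0.0571), -0.81 for LEF1 (0.09), 0.69 for CTNNB1 (0.113), -0.61 for TCF7 (0.302) and 0.29 for PORCN (0.32). Medium and kit differed along with the background, and their part in these differences cannot be told apart. With the replicate block 8 members differed in LN229-R minus U87-R, and 7 without a filter on low values. Counts over all genes under these settings are not given here, so the larger member counts cannot be set beside a share of all genes.

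The resistance comparisons used the DMSO libraries that also serve as controls of STM2457. Resistance and the temozolomide in the medium of the resistant lines cannot be told apart in them. U87-R against U87 MG changed 2 of 33 tested members, both higher, where 4.27% of 16306 genes were called (510 higher, 187 lower); the member median was -0.02, against -0.01 over all genes. FZD8 held 735, 952 and 1129 in U87-R and 351, 375 and 271 in U87 MG, with no overlap and a change of 1.49 ± 0.19 (adjusted p = 0.00349, limma). WNT7B held 3528, 4049.9 and 5206 in U87-R and 2514, 2533 and 2747 in U87 MG, also apart (0.70 ± 0.14, adjusted p = 0.0274, limma). How many of all tested genes had groups without overlap was not counted, so a lack of overlap alone is no result about the members. Of 10 other members whose groups did not overlap none passed. Those higher in U87-R were WNT2B, WLS, FZD5, FZD7, AXIN2 and CTNNB1, by 0.57, 0.43, 0.23, 0.22, 0.50 and 0.18, and those lower were WNT9A (7.75 against 16.9 on average), FZD4 (-0.36), AXIN1 (-0.23) and LRP5. LRP5 held 1.66, 5.07 and 5.46 in U87-R and 38.9, 6.07 and 69.7 in U87 MG (-2.53 ± 0.85, adjusted p = 0.162, limma). WNT7B was lost without U87-R replicate 2 or any 1 U87 MG replicate (adjusted p up to 0.114) and without the trend (0.115). The member count was 1 without U87-R replicate 2 or U87 MG replicate 3, where 315 and 539 of all genes passed. FZD8 also rose with STM2457 in U87 MG, by 0.99; these comparisons share their DMSO libraries.

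LN229-R against LN229, as labelled, changed 5 of 36 tested members (1 higher, 4 lower), where 9.25% of 17136 genes were called (959 higher and 626 lower, but 1189 and 472 with libraries rescaled to equal totals). The member median was -0.09, against -0.01 over all genes. DKK1 held 210.0, 217 and 393 in libraries labelled LN229-R and 96.8, 60.5 and 92.9 in libraries labelled LN229, a change of 1.67 ± 0.29 without overlap (adjusted p = 0.0113, limma). DKK3 held 14429.7, 13958 and 13749.8 in LN229-R and 21746, 24115 and 22656 in LN229 (-0.70 ± 0.08, adjusted p = 0.00244, limma). SFRP1 held 5158, 5378 and 4789 in LN229-R and 7326, 9944 and 6897 in LN229, and WNT5B 88.9, 89.9 and 85.2 in LN229-R and 142, 156 and 149 in LN229. Neither gene overlapped between the groups, and the changes were -0.64 and -0.75 (adjusted p = 0.0273 and 0.0195, limma). LRP5 held 2009.9, 1946 and 2096 in LN229-R and 2597, 3064 and 2469 in LN229 (-0.42, adjusted p = 0.036, limma). Should the names of the drug tables hold instead, each sign turns.

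The count in this comparison moved with single libraries and with pairing. It was 2 without LN229-R replicate 1, 2 or 3, where 606, 683 and 534 of all genes passed. Without LN229 replicate 2, the library that stood apart, it was 16, where 3262 of all genes passed. WNT5B and LRP5 lost their calls without any LN229-R replicate or LN229 replicate 1 or 3 (adjusted p up to 0.0929 and 0.135), and SFRP1 without any LN229-R replicate (up to 0.125). LRP5 and SFRP1 also missed the threshold without the variance trend (0.0936 and 0.0798). With the replicate block 9 members passed, beside 2600 of all genes. The block added PORCN (-0.36, adjusted p = 0.0411), NOTUM (0.88, 0.0419), LRP6 (-0.35, 0.0241) and TCF7 (0.70, 0.0107).

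Gene structure was set beside the response to STM2457, a comparison chosen after the responses were known, since many FZD genes have few introns. In GENCODE 29, 7 members have 1 or 2 exons (FZD1, FZD2, FZD4, FZD5, FZD7, FZD8 and FZD9), and 5 of them have 1. Of these members 4 of 6 tested rose in U87 MG, 3 of 6 in U87-R, 4 of 7 in LN229 and 5 of 7 in LN229-R. Members with 3 or more exons rose in 3 of 27, 4 of 25, 14 of 32 and 9 of 28 cases in the same lines. Over all tested genes with 1 or 2 exons, 25.1% rose in U87 MG, 24.4% in U87-R, 52.6% in LN229 and 46.4% in LN229-R. For genes with 3 or more exons these shares were 7.8%, 8.6%, 26.8% and 22.2%. The shares of members with few exons were 66.7% in U87 MG, 50% in U87-R, 57.1% in LN229 and 71.4% in LN229-R, on 6 or 7 genes a line, and their excess over all genes with few exons was not tested.

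**Figure D5:**
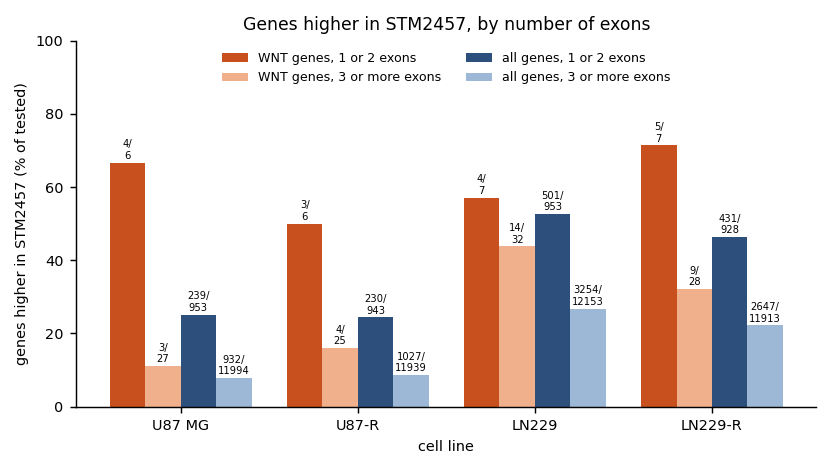
Bars give the percent of tested genes called higher in STM2457 in each line, for WNT pathway genes and for all genes, by number of exons of the principal GENCODE 29 transcript; the counts stand above the bars. Genes with 1 or 2 exons are higher more often than genes with 3 or more in each line, 25.1% against 7.8% over all genes in U87 MG.

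Another 72 genes of the pathway were examined as 6 lists. STM2457 raised 8 and lowered 3 of 49 tested in U87 MG, raised 5 and lowered 6 of 49 in U87-R, raised 18 and lowered 16 of 53 in LN229, and raised 14 and lowered 9 of 51 in LN229-R. The shares called were 22.4%, 22.4%, 64.2% and 45.1%, beside 13.6%, 14.7%, 49.7% and 38.6% of all genes. In U87-R against U87 MG 2 of 49 were higher (4.08%, against 4.27% of all genes called), and in LN229-R against LN229, as labelled, 5 were higher and 2 lower of 53 (13.2% against 9.25%). Of 11 nuclear cofactors tested, STM2457 changed 10 in LN229, 8 in LN229-R, 5 in U87 MG and 4 in U87-R. BCL9L, a bridge between beta-catenin and its coactivators, averaged 5777 ± 130 in STM2457 and 2895 ± 140 in DMSO libraries of LN229-R, and 5053 ± 365 in STM2457 and 2755 ± 209 in DMSO libraries of U87 MG (SD, n = 3 each). CTNNBIP1, which blocks beta-catenin from binding TCF proteins, averaged 1309 ± 96.3 in STM2457 and 5032 ± 606 in DMSO libraries of LN229-R (-1.94, adjusted p = 5.19e-05, limma), and 414 ± 99.3 in STM2457 and 236 ± 37.3 in DMSO libraries of U87 MG (0.80, adjusted p = 0.0368, limma). TLE2, a corepressor, fell by 1.80 in U87-R.

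Of 14 listed beta-catenin target genes, 4 rose and 4 fell of 12 tested in LN229, 3 rose and 1 fell of 11 in LN229-R, 2 rose and 1 fell of 12 in U87 MG, and 0 rose and 2 fell of 12 in U87-R. That is 66.7% in LN229, 36.4% in LN229-R, 25% in U87 MG and 16.7% in U87-R, where 49.7%, 38.6%, 13.6% and 14.7% of all genes were called; the shares in LN229-R and U87-R are near those of all genes. ID2 rose by 2.25 in LN229-R and 1.96 in LN229, and CD44 by 1.53 and 1.24. MYC rose by 1.49 in LN229-R, BIRC5 fell by 1.16 in LN229, and SOX9 fell by 1.16 in U87 MG and 0.82 in U87-R. CELSR2, an adhesion receptor of planar cell polarity, averaged 341 ± 39.3 in STM2457 and 967 ± 74.5 in DMSO libraries of U87-R, and 361 ± 102 in STM2457 and 904 ± 85.6 in DMSO libraries of U87 MG (SD, n = 3 each). RSPO3, which shields Frizzled receptors from RNF43 and ZNRF3, averaged 1477 ± 177 in STM2457 and 627 ± 65.6 in DMSO libraries of U87-R (1.23, adjusted p = 0.00118, limma). Of the 15 Dishevelled and destruction complex genes, GSK3A, named after its values were seen, fell in all 4 lines, by 0.37 to 0.47. In the resistance comparisons TLE2 rose by 2.34 and TBX3 by 1.15 in U87-R, and SOX9 rose by 3.04 in LN229-R as labelled.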

How the data were processed

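RNA was measured in 24 libraries. Per the submitters' processing notes, DESeq2, Salmon 1.4.0, STAR 2.7.11a and Trimmomatic 0.39 were used with the build GRCh38 (hg38); the annotation release is not given in the sources used here. The deposited tables hold normalized counts (a signal that is never negative), which the authors scaled separately in each of 6 tables by factors that differ between genes, so whole reads and sequencing depth could not be recovered and no count test was run. No column of per-sample values was left unused. The result of 1 marker list is not reported here.

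Each table was tested with limma 3.58.1 (R 4.3.3, variance trend) on log2(normalized count + 1) on genes averaging 10 or more over the table, with Benjamini-Hochberg adjustment over all genes tested and a threshold of 0.05. Differences between STM2457 effects were tested in joint fits of 12 libraries. Adjusted p-values throughout are limma's, and the procedure was tested on simulated data. Fold changes of low genes are understated on this scale. Symbols and structures came from GENCODE 29 and promoters from RefSeq (GRCh38.p14).

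Members, gene lists and the comparisons by exon number and motif were chosen with earlier results of these data known. Members with a log2 change of at least 1 in a comparison where they passed, or a pass in 2 or more comparisons, are given by library and the rest by range; of other pathway genes, up to 4 per comparison with the largest change among those that passed are named. Replicate numbers were taken to pair libraries where every like-numbered pair of deviations correlated above 0.1, which held for LN229-R against LN229 (0.114 to 0.204), STM2457 in U87-R (0.114 to 0.298) and STM2457 in LN229-R (0.102 to 0.321); the pairing comes from the data and not from the labels. Alternatives were other pseudocounts (0.5 and 5), other filters, scalings and thresholds, no variance trend, the replicate block, and leaving out each library.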

Additional observations from a re-analysis of the deposited data

Results flagged for a closer look

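The genes below are listed because the effect of STM2457 differed between cell backgrounds in a test of the difference itself, in joint limma fits with adjustment over all genes. Medium and library kit changed with the background and cannot be told apart from it. The share of members that differed was 30% (9 of 30) in LN229 minus U87 MG, where 18.8% of all genes did, and 14.8% (4 of 27) in LN229-R minus U87-R, where 14.4% did, so the second share is that of all genes. Groups of 3 are too small to be tested for single outlying samples.

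In LN229 minus U87 MG the difference of log2 effects was 1.41 for DKK3 (0.74 in LN229 and -0.68 in U87 MG), 0.84 for FZD5 (1.70 and 0.87), 0.80 for LRP6 (0.60 and -0.20) and 1.75 for WNT2B (1.82 and 0.06). It was 1.49 for DKK1 (1.34 in LN229 and -0.16 in U87 MG), 0.89 for PORCN (0.25 and -0.64) and 0.54 for CTNNB1 (0.72 and 0.18). Differences were negative for LEF1, at -0.58 (-1.01 in LN229 and -0.42 in U87 MG), and for TCF7, at -0.96 (-0.37 and 0.59).

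In LN229-R minus U87-R it was 1.37 for DKK3 (0.13 in LN229-R and -1.24 in U87-R), 1.47 for FZD5 (2.02 and 0.55), 1.04 for LRP6 (0.70 and -0.34) and 2.26 for WNT2B (2.04 and -0.22).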

How the results depend on the processing

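Of 2865 member values under alternatives, 2691 kept their side of the threshold, 112 no longer passed and 62 newly passed. None that passed in the main fit or under an alternative changed direction. Values that passed in neither were not checked for direction. Without limma's variance trend 1 member and 396 genes passed in U87-R against U87 MG, 3 and 951 in LN229-R against LN229, 4 and 1301 for STM2457 in U87 MG, and 6 and 1372 in U87-R. At an adjusted p under 0.01 the counts, in the same order, were 1 and 262, 1 and 543, 4 and 783, and 4 and 811, with 5480 genes in LN229 and 9 members and 3521 genes in LN229-R. Requiring a log2 change of at least 1 left 1 and 447, 1 and 562, 3 and 599, and 4 and 668, with 10 and 2867 in LN229 and 9 and 2841 in LN229-R. With the replicate block, 1176 genes passed in U87-R against U87 MG, 9 members and 2600 genes in LN229-R against LN229, 16 members and 4137 genes for STM2457 in U87 MG, and 4796 genes in U87-R; in the comparisons that pair, it changed no call other than those given with the results. In LN229-R minus U87-R, 7 members differed with no filter and 8 with the replicate block, without a count over all genes to set beside them. The cause of these moves was not tested.

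Leaving out 1 library gave 1 to 2 members and 315 to 607 genes in U87-R against U87 MG, and 2 to 16 members and 534 to 3262 genes in LN229-R against LN229. For STM2457 it gave 4 to 10 members and 890 to 1803 genes in U87 MG, 4 to 9 and 884 to 2217 in U87-R, 20 to 29 and 6591 to 8621 in LN229, and 12 to 22 and 4364 to 6425 in LN229-R. Differences between lines held 0 members in both resistant-parental pairs, 6 to 9 in LN229 minus U87 MG and 4 to 6 in LN229-R minus U87-R. For these differences the counts over all genes are not given here. Depth behind the normalized counts is unknown, which limits what low members such as WNT4, WNT6 and NKD1 can show.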
